A study of Homo sapiens with 16 samples.

Results

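FOXB1 Het cells were followed from day 3, called pre-neural crest in the labels, to day 5, called neural crest, and the levels at the 2 days were compared gene by gene. All genes of the Het comparison entered whose status in the authors' deposited table was other than FAIL and whose level reached 1 FPKM (a count of sequenced fragments scaled to transcript length and library size) on at least 1 day. That gave 13815 of 23284 genes, of which 13744 were tested by the authors and 71 were not. The cells were WA01 human embryonic stem cells, an established line, in which the translational start of FOXB1 had been cut by CRISPR/Cas9 with a single guide RNA, giving the Het and KO genotypes. The labels do not say whether the Het cells are 1 clone, which sequence each allele carries, or whether the libraries came from separate cultures. Every group carried the same induction toward neural crest: 20000 cells per cm2 were plated on Matrigel in medium with 3 µM CHIR99021, which blocks GSK3 and so mimics WNT signalling, with Y-27632 at 10 µM, which inhibits ROCK and helps plated cells survive, added at the start. Het day 3 and Het day 5 were 2 libraries each, out of 16 libraries in the series. The wild-type group of the table (isogenic unedited lines, named isoWT1 and isoWT2 in the labels) and the group named HOMO, read here as the KO line, at the same days served for comparison.

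Neural crest cells arise at the edge of the neural plate, where WNT, FGF and BMP signals switch on border genes such as PAX3 and PAX7. They then acquire specifier genes such as SOX10, lose contact with the neural tube and migrate to form peripheral neurons, glia, pigment cells and facial skeleton. FOXB1 is a forkhead transcription factor of the early neural tube. The question the series addresses is how FOXB1 bears on the timing of crest differentiation and its neuronal potential.

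The authors' deposited table gives 1 FPKM per gene and group, so the value of each library is not shown, the depth per sample is unknown, and the spread between replicates enters only through the authors' test scores. From those scores the SE (standard error) of a log2 change was recovered. Its median was 0.70 for genes with a higher level of 1 to 3 FPKM and 0.42 at 100 FPKM or more. Genes with a q-value below 0.05 in the authors' deposited table were called, and "rose" and "fell" are used of called genes alone. The Het p-values rest on 2 libraries per group, which may be technical replicates. How the authors' test modelled the spread between libraries was not examined, so a p-value need not measure the spread within 1 group. RNA was pooled over all cells of a culture, so a change in the share of a cell type and a change in RNA per cell cannot be told apart.

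The RNA of FOXB1 (hg19 chromosome 15, 60296421 to 60298142) was at 7.73 FPKM at day 3 and 4.47 FPKM at day 5 in Het. That log2 change of -0.79 (SE 0.53) was not called in the authors' deposited table (q = 0.289). In wild type FOXB1 fell from 18.3 to 5.51 FPKM and in KO from 15.5 to 1.86 FPKM. An edit at the start codon need not remove the RNA, so these levels do not check the genotype. The labelled cell types were checked against crest markers. PAX3 stood at 29.3 and 24.6 FPKM at days 3 and 5, SOX9 at 3.74 and 6.62 FPKM, FOXD3 at 2.71 and 4.49 FPKM and the crest surface receptor NGFR at 3.24 and 14.3 FPKM. TWIST1 was at 0.15 FPKM or less on both days. Few markers of streak, mesoderm, endoderm, blood or muscle reached 1 FPKM. Of 22 streak, mesoderm and endoderm genes, KDR and APLNR alone reached 1 FPKM, APLNR rose from 0.674 to 2.11 FPKM, and the summed level of the list was 6.95 FPKM at day 3 and 5.87 FPKM at day 5, with FOXA2 listed at 0 on both days. The 10 blood and endothelial markers summed to 31.3 and 18.8 FPKM, of which the receptor TEK made up 27.7 and 17.6 FPKM, and of the 2 tested, VWF fell from 2.36 to 0.541 FPKM. The 10 muscle and heart markers summed to 30.4 and 14.5 FPKM, with ACTC1 falling among the 2 tested. Other lists were better represented. Of 24 placode and surface ectoderm genes 11 reached 1 FPKM, and the list summed to 204 and 201 FPKM, with KRT14 and FOXE1 listed at 0. So did 16 of 24 neural progenitor genes, 14 of 27 sensory and neuronal genes and 13 of 21 pluripotency and NODAL genes. The same held for 7 of 14 melanocyte and glial genes and 18 of 24 mesenchyme and matrix genes.

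From day 3 to day 5, 1091 of the 13744 tested genes changed in Het, which is 7.94%. Of these 686 rose (4.99% of tested genes) and 405 fell (2.95%). The median log2 change over all 13815 genes, with 0.1 FPKM added to each level, was 0.05, and the middle of the distribution from the 5th to the 95th percentile ran from -0.96 to 1.32. A rise of at least 1 on the log2 scale was found for 602 called genes above 0 on both days and one of at least 3 for 32, against falls of that size for 326 and 17. The smallest change that was called was 0.79. The share called was 7.36% at 1 to 3 FPKM and 14.4% at 100 FPKM or more, where 108 genes rose and 21 fell. Of 18 housekeeping genes 5 rose and none fell (median 0.71), and 4 of the 5 encode ribosomal proteins. Crossing from under 1 to at least 5 FPKM were 12 called genes: TFAP2B, SOX10, ZIC1, HOXA2, HOTAIRM1, HES4, S100A6, TPPP3, ADCY2, SLC16A14, H2AFJ and HIST1H2AE. Crossing the other way were 10: LHX5, PAX2, WNT4, DKK1, CNTN2, PCDH8, PCDH1, PPP1R17, ADRA2A and the small RNA SNORD116-28, which was listed at 0 at day 5.

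**Figure D1:**
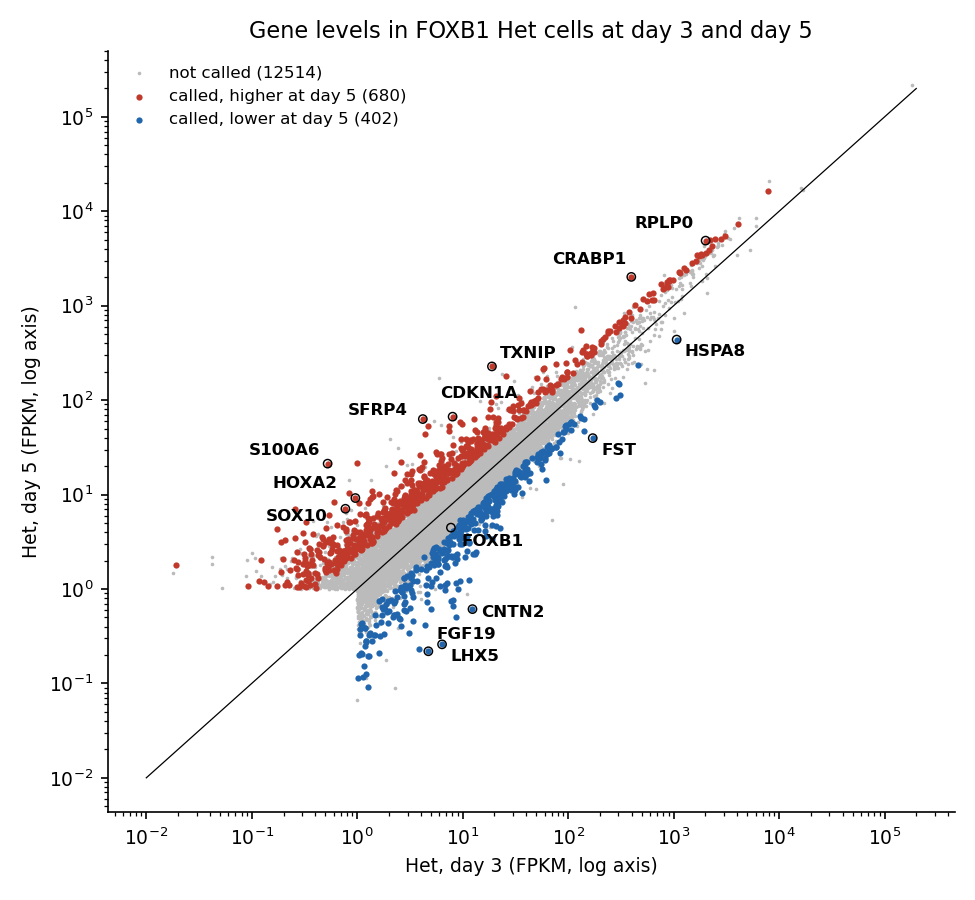
Each point is a gene with a level above 0 on both days in Het, its FPKM at day 3 on the x axis and at day 5 on the y axis, both on log axes, with the line marking equal levels. The 680 red genes were called higher and the 402 blue genes called lower at day 5 (Y-linked genes and genes at 0 on a day are not drawn), and FOXB1 lies among the grey, uncalled genes below the line.

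Genes of the neural crest programme rose together in part. In the list of neural crest specifiers 9 of 21 tested members rose and 2 fell, with a median log2 change of 0.81 against 0.05 for all genes. TFAP2B, an AP-2 factor of the crest, stood at 0.842 FPKM at day 3 and 10.4 FPKM at day 5 (log2 change 3.63, SE 0.64). SOX10, the factor that marks definitive crest and later glia (chromosome 22, 38368319 to 38380539 in hg19), went from 0.773 to 7.07 FPKM (3.19, SE 0.78). ETS1, a factor of cranial crest, went from 2.40 to 10.9 FPKM (2.19, SE 0.51). The nuclear receptors NR2F1 (7.76 to 23.6 FPKM) and NR2F2 (6.08 to 26.7 FPKM), the facial factor ALX1, MEF2C, SOX8 and SNAI2 (9.85 to 19.5 FPKM) made up the rest of the rises. The 2 falls were those of MYCN, from 34.3 to 16.5 FPKM, and MYC, from 8.12 to 2.21 FPKM, both growth regulators.

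The border list was split, with 5 of 15 tested members rising, 2 falling and a median of -0.10. ZIC1 rose from 0.831 to 5.16 FPKM, ZIC4 from 0.260 to 1.68 FPKM, TFAP2A from 3.85 to 12.7 FPKM, MSX2 from 18.2 to 37.5 FPKM and PRDM1 from 0.343 to 1.49 FPKM. PAX7, an early border gene, fell from 8.80 to 2.37 FPKM (-1.89, SE 0.64), and IRX1 fell from 27.2 to 12.1 FPKM. Of 27 tested genes of crest surface and migration, 7 rose and 3 fell (median 0.21). The risers were the endothelin receptor EDNRA (3.82 to 18.5 FPKM), NGFR, the cadherin CDH6 (9.55 to 25.8 FPKM), the semaphorin receptor NRP2 (77.4 to 143 FPKM), SEMA3C, ROBO2 and CD44. TNC, PCDH18 and PLXNA2 fell.

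Matrix genes included some of the clearest rises. In the mesenchyme and matrix list 7 of 18 tested members rose and 2 fell (median 0.32). COL1A2 rose from 18.5 to 95.04 FPKM (2.36, SE 0.47), COL1A1 from 3.25 to 16.5 FPKM and COL5A2 from 4.25 to 22.2 FPKM, all chains of fibrillar collagen. COL6A1, COL6A2, SPARC and fibronectin FN1 rose as well. TAGLN and ACTA2, contractile genes of smooth muscle, stood at 404 and 78.5 FPKM at day 3 and 328 and 49.3 FPKM at day 5, and were not called.

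Several anterior neural genes fell. In the list of midbrain and isthmus genes 5 of 12 tested members fell, none rose, and the median was -1.43 (-0.80 with 1 FPKM added to each level). EN1, a homeobox gene of the midbrain, went from 8.43 to 1.90 FPKM (-2.15, SE 0.75). PAX2, of the midbrain-hindbrain boundary, went from 7.80 to 0.743 FPKM (-3.39, SE 0.82). PAX8, FGF17 and DMBX1 were the other falls. FGF8, the signal of the isthmus, stood at 2.28 FPKM at day 3 and 0.0903 FPKM at day 5 without being called. WNT1 (36.8 and 58.5 FPKM) and LMX1A (10.7 and 13.9 FPKM), which also mark the dorsal midbrain, were not called either, nor was OTX2 (41.5 and 24.98 FPKM). LHX5, a forebrain factor in the list of neural progenitors, had the largest fall among called genes above 0 on both days, from 6.37 to 0.259 FPKM (-4.62, SE 1.00). FGF19 fell from 4.73 to 0.219 FPKM (-4.43, SE 0.89).

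Of 24 HOX genes, which mark the hindbrain and trunk, HOXA2 alone reached 1 FPKM in Het, and 16 were listed at 0 on both days. HOXA2 rose from 0.960 to 9.19 FPKM (3.26, SE 0.71), and HOTAIRM1, a noncoding RNA of the HOXA cluster, from 0.988 to 21.4 FPKM (4.43, SE 0.91). Both called genes stood higher at day 5 in wild type (10.4 FPKM for HOXA2 and 37.2 FPKM for HOTAIRM1) than in KO (3.17 and 5.92 FPKM). Day 5 levels of the HOX list as a whole were not compared between wild type and KO. Its changes from day 3 cover unlike sets of genes in these genotypes. In KO 8 HOX genes were tested, of which 3 rose and none fell (median 3.13). In wild type 2 were tested and both rose (median 1.96).

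The list of neural progenitors, LHX5 included, was split, with 2 of 16 tested members rising, 3 falling and a median of 0.07. SOX1, an early neural plate factor, rose from 5.63 to 17.7 FPKM (1.65, SE 0.49), while the wild-type levels were 25.9 and 24.2 FPKM and those of KO 2.52 and 1.13 FPKM. SOX2 stood at 94.97 and 102 FPKM and NES at 120 and 196 FPKM, and neither was called. DBX1 fell from 7.06 to 1.17 FPKM and SP8 from 15.5 to 6.06 FPKM. Among 14 tested sensory and neuronal genes 4 rose (NTRK2, ELAVL4, NHLH1 and INSM1) and 3 fell (POU4F1, STMN2 and RET), with a median of 0.27. NTRK2, the BDNF receptor, rose from 4.47 to 14.3 FPKM. POU4F1, a factor of sensory neurons, fell from 13.9 to 4.21 FPKM (-1.72, SE 0.56). NEUROG1 was below 0.05 FPKM on both days. In the list of melanocyte and glial genes 2 of 7 tested members rose and none fell (median 0.88, or 0.22 over all list genes above 0), among them the pigment gene PMEL (91.1 to 168 FPKM), while MITF and TYR were at or below 0.039 FPKM.

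Pluripotency genes moved down. Of 13 tested members 6 fell and none rose (median -0.95). POU5F1, the core pluripotency factor, went from 16.4 to 4.79 FPKM (-1.77, SE 0.57); it has near-identical pseudogenes, and the table places it on an alternate haplotype sequence, so its level is uncertain. L1TD1 went from 16.8 to 3.63 FPKM, the methyltransferase DNMT3B from 61.5 to 27.7 FPKM, SALL4 from 51.0 to 21.9 FPKM, LIN28A from 457 to 237 FPKM and the noncoding RNA ESRG from 35.2 to 15.6 FPKM. NANOG was below 1 FPKM on both days. The fall of POU5F1 was from 45.7 to 3.61 FPKM in wild type and from 67.5 to 8.56 FPKM in KO, so that Het had the lowest day 3 level of the 3.

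Signalling genes moved in small groups. In the FGF list 4 of 22 tested members fell (FGF19, FGF17, and the ERK targets SPRY4 and ETV4) and 2 rose, the immediate early genes EGR1 (14.9 to 37.8 FPKM) and FOS (4.92 to 12.9 FPKM). SPRY4 stood at 4.77 and 1.71 FPKM in Het and at 10.9 and 14.0 FPKM in KO. In the WNT list 5 of 24 fell and 2 rose (median -0.27). SFRP4, a secreted WNT modulator (chromosome 7, 37945535 to 37956525 in hg19), rose from 4.19 to 63.1 FPKM (3.91, SE 0.58), with 10.9 and 86.0 FPKM in wild type and 0.116 and 0.417 FPKM in KO. WNT3A, a ligand of the dorsal neural tube, rose from 3.45 to 11.2 FPKM. WNT4 fell from 8.11 to 0.771 FPKM, the inhibitor DKK1 from 5.02 to 0.617 FPKM, and SP5, a direct WNT target, from 33.3 to 12.1 FPKM. AXIN2, another such target, stood at 41.3 and 34.7 FPKM and was not called.

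In the BMP list 3 of 20 tested members rose (BMP7, ID4 and MSX2) and 3 fell, with a median of 0.25. The 3 that fell were secreted antagonists: the activin and BMP binder FST from 171 to 39.6 FPKM (-2.11, SE 0.43), GREM1 from 22.8 to 4.42 FPKM (-2.37, SE 0.49), and DKK1, a WNT antagonist placed in both lists. BMP7 rose from 8.66 to 20.4 FPKM and ID4 from 11.5 to 27.5 FPKM. The antagonists NOG (3.09 and 3.24 FPKM) and CHRD (2.27 and 2.55 FPKM) were not called. In the retinoic acid list 2 of 12 rose and none fell (median 0.19). CRABP1, which binds retinoic acid in the cytoplasm, went from 397 to 2021 FPKM (2.35, SE 0.39) and the receptor RARB from 4.30 to 15.3 FPKM (1.83, SE 0.62). RARB was at 16.6 and 28.3 FPKM in wild type and at 1.81 and 0.716 FPKM in KO.

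Notch is a receptor cut on contact with a ligand on the next cell, after which its inner part joins RBPJ on DNA and switches on HES genes. Of 16 tested Notch genes 3 rose (HES5, HES4 and the ligand DLL3) and DLK1 fell (median 0.33). HES5 stood at 0.206 FPKM at day 3 and 3.30 FPKM at day 5 (4.001, SE 1.17). HES4 stood at 0.538 and 6.11 FPKM (3.50, SE 0.98). HES1 was level by comparison at 10.5 and 9.73 FPKM, without a call. The promoters of HES4 and HES5 are shown because both genes rose together and both hold the letters bound by RBPJ. They are the 250 bases before each gene start in RefSeq (GRCh38.p14), chr1:1000098-1000347 for HES4 and chr1:2530264-2530513 for HES5, both on the minus strand and printed 5′ to 3′ along the gene. Capitals mark TGGGAA, searched on both strands.
HES4: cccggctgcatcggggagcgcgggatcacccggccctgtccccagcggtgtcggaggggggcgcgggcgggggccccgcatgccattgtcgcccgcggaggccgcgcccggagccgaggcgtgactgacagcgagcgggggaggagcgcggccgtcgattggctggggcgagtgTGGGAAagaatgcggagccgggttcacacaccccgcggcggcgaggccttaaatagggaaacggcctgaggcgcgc
HES5: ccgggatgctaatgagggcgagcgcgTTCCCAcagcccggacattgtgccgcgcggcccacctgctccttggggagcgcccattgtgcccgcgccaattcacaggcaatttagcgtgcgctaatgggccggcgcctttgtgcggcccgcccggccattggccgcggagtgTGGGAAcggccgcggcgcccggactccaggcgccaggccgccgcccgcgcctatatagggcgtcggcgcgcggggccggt
The match in HES4 begins 76 bases before the gene start, and those in HES5 begin 80 and 224 bases before it. Of 34943 promoters of the same length, 20.9% hold at least 1 such match and 2.89% hold 2 or more, so a single match is common. These 2 promoters were picked for holding the letters, so the matches support nothing, and that of HES1 is not shown. A match is not a measured binding site, and whether Notch had a part in the rises was not tested.

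TXNIP and ARRDC4 are alpha-arrestins that restrain glucose uptake, and their genes are textbook targets of the glucose-sensing factor MondoA. TXNIP (chromosome 1, 145438462 to 145442628 in hg19) stood at 18.9 FPKM at day 3 and 228 FPKM at day 5 (3.59, SE 0.43). ARRDC4 stood at 4.37 and 43.6 FPKM (3.32, SE 0.47). The remaining genes of the list, ARRDC3 (15.4 and 24.3 FPKM) and ARRDC2 (0.924 and 1.42 FPKM), were not called. This list of 4 was drawn up after values had been seen and need not cover the family. The same genes rose in wild type (TXNIP 50.1 to 397 FPKM) and in KO (14.0 to 205 FPKM). Their promoters are shown because the factor binds pairs of E-box-like letters. They are again the 250 bases before the gene start (RefSeq, GRCh38.p14), chr1:145996580-145996829 on the minus strand for TXNIP and chr15:97960453-97960702 on the plus strand for ARRDC4. Capitals mark CACGNG on either strand.
TXNIP: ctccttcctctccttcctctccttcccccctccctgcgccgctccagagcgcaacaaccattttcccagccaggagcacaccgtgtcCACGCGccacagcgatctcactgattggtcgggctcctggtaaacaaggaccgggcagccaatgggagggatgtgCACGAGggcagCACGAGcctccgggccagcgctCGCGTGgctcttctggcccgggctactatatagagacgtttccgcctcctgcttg
ARRDC4: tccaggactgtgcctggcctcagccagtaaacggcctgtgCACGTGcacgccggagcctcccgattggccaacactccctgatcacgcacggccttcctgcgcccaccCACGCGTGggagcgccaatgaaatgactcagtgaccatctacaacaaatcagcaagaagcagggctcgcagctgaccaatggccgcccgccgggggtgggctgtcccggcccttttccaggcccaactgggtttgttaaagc
TXNIP holds 4 matches, starting 163, 88, 77 and 55 bases before the gene start. ARRDC4 holds 3, at 210, 142 and 140 bases, the last 2 of which overlap. Of the 34943 promoters, 26.6% hold at least 1 match and 6.24% hold 2 or more. These promoters were picked as those of known targets, so the matches support nothing. A match is a run of letters and not a measured binding site, and whether MondoA had a part in the rises was not tested.

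Leaving aside lists drawn up after values had been seen, the p53 targets had the largest share of rises among lists with at least 7 tested members. The lists left in this ranking were also chosen with earlier results of these data known, so their order describes them and supports nothing. Of 22 tested members 13 rose and none fell, with a median of 1.36. In wild type 11 rose (median 0.78), and in KO 3 rose and 1 fell (median 0.09). In the test of differences given below, no member's Het change differed from that in wild type or KO. With the scaled SE given there, 2 were higher in Het than in wild type and 4 than in KO. Of all tested genes 11.6% rose and 10.7% fell in wild type, 7.52% rose and 4.58% fell in KO, and the medians of all genes were 0.01 and 0.08. CDKN1A, the p21 inhibitor of the cell cycle, went from 8.03 to 66.8 FPKM in Het (3.06, SE 0.48), with 34.1 and 100 FPKM in wild type and 24.1 and 56.1 FPKM in KO. BTG2, which slows proliferation, went from 7.49 to 53.7 FPKM (2.84, SE 0.49). DDB2, a DNA repair factor, went from 18.2 to 81.2 FPKM (2.15, SE 0.45). The day 3 levels of these 3 genes were lower in Het than in either of the other genotypes. RRM2B, TNFRSF10B, SESN1, TP53INP1, CCNG1, FDXR, ZMAT3, PHLDA3, BBC3 and SPATA18 also rose. MDM2 (15.4 and 18.2 FPKM) and BAX (96.9 and 152 FPKM) were not called. With calls remade after centring within bins of transcript length, 12 of the 22 rose and 1 fell. The same test without centring gave 14 rises and no fall.

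None of the 23 tested proliferation genes was called in Het, with a median of -0.13. MKI67 stood at 35.1 and 25.6 FPKM, the S-phase factor MCM5 at 54.3 and 31.6 FPKM and the mitotic cyclin CCNB2 at 71.2 and 126 FPKM. In wild type 8 of these genes rose and 5 fell (median 0.14), where 11.6% of all tested genes rose and 10.7% fell. In the test of differences given below, no member's change differed between Het and wild type, with the implied or the scaled SE. None of the 14 tested FOX genes was called in Het, FOXB1 included. In the list of ATF4 targets and amino acid genes 2 of 16 rose and 2 fell (median 0.01), and in that of glycolysis 4 of 19 rose and HK2 fell (median 0.57). DDIT4, an inhibitor of mTOR, rose from 58.7 to 221 FPKM. ENO2 (43.5 to 125 FPKM), ALDOC, PGK1 and ALDOA were the rises in glycolysis. CLDN6 was the single call among 11 tested placode and surface ectoderm genes, falling from 68.6 to 30.8 FPKM.

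**Figure D2:**
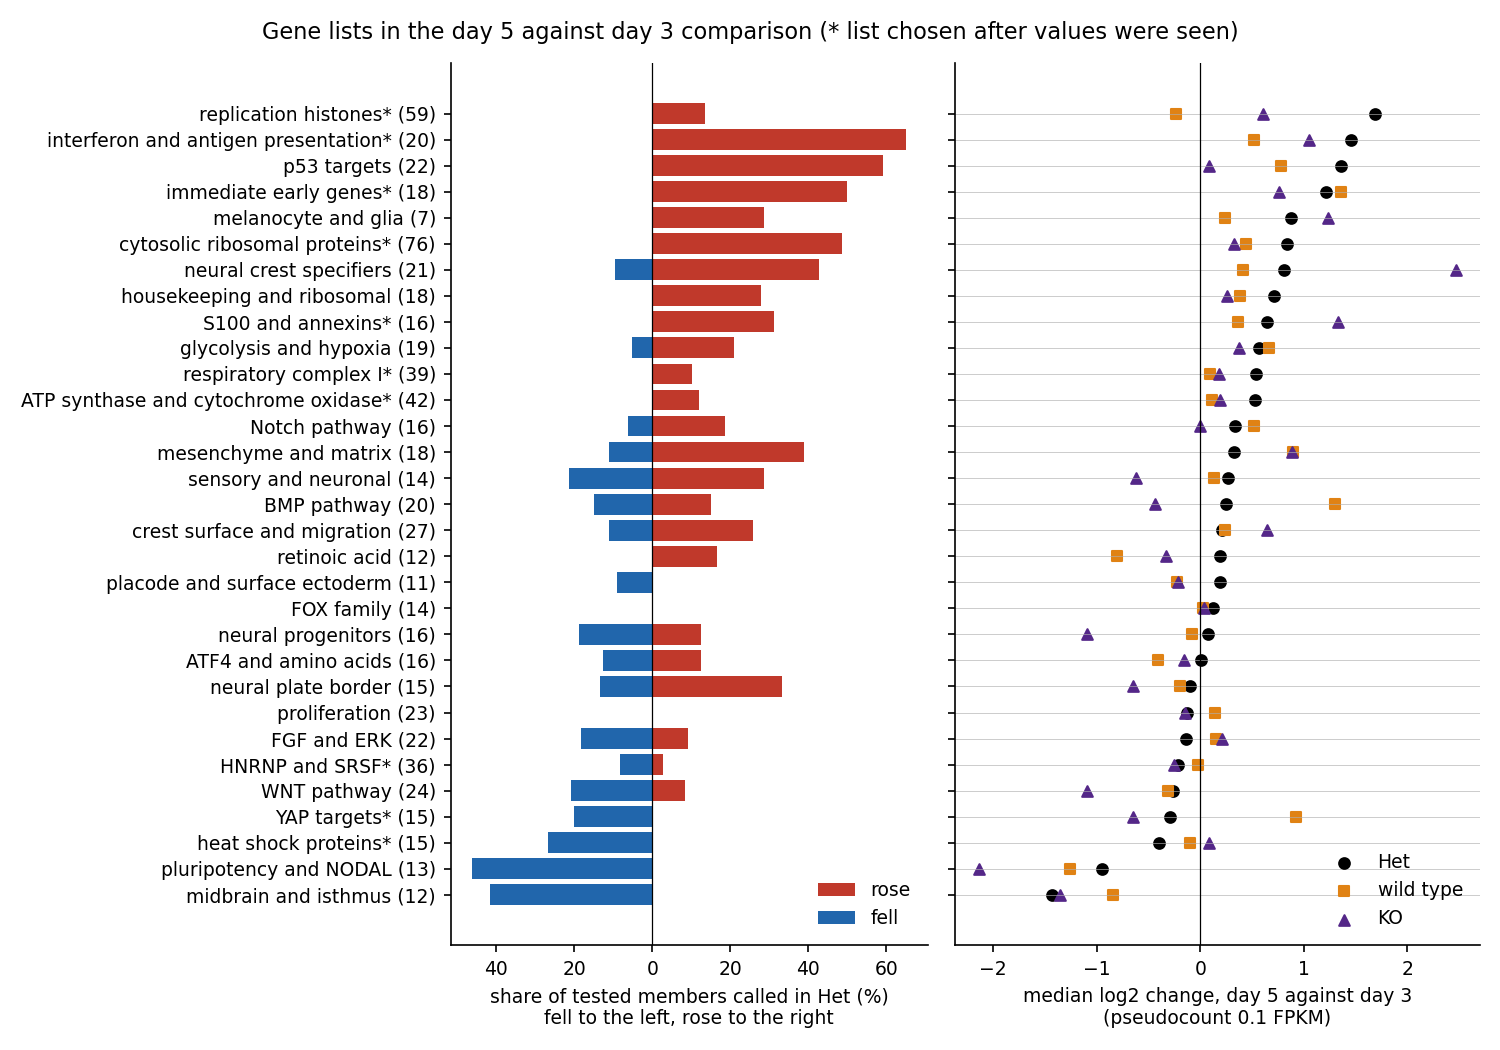
The left panel gives, for each list with at least 7 tested members (number in brackets), the share of tested members that rose (red, to the right) or fell (blue, to the left) in Het, and the right panel the median log2 change in Het, wild type and KO. The p53 list shows 13 of 22 rising and the midbrain list 5 of 12 falling, and starred lists were drawn up after values had been seen.

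Several further groups were drawn up after values had been seen, so their counts describe them and support nothing. Of 20 tested interferon and antigen presentation genes 13 rose and none fell (median 1.45). IFITM1 went from 20.5 to 111 FPKM, IFITM3 from 57.5 to 213 FPKM, IFI27L2 from 12.7 to 62.6 FPKM and B2M, the light chain of HLA class I, from 27.2 to 80.1 FPKM. The interferon regulatory factors IRF1 (1.69 and 1.61 FPKM) and IRF9 (3.41 and 3.28 FPKM) were not called. Of 18 immediate early genes 9 rose and none fell (median 1.21), among them FOSL1, from 0.558 to 3.17 FPKM, and ZFP36, from 0.932 to 4.19 FPKM. Of 16 S100 and annexin genes 5 rose. S100A6, a calcium-binding protein, went from 0.524 to 21.3 FPKM (5.34, SE 1.01), S100A10 from 9.81 to 56.2 FPKM and ANXA2 from 104 to 341 FPKM. Of 15 heat shock genes 4 fell (HSPA8, HSPH1, HSPA5 and DNAJA1), HSPA8 from 1069 to 438 FPKM (-1.29, SE 0.43). HSP90AB1 stood at 1040.1 and 1096 FPKM and was not called.

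All 76 cytosolic ribosomal protein genes stood higher at day 5 and 37 of them rose (median 0.84), by log2 changes from 0.83 to 1.28. Many have near-identical pseudogenes, and so have histone genes near-identical copies, which makes single levels uncertain. RPLP0, of the ribosomal stalk, went from 2012 to 4895 FPKM and RPL41 from 7930 to 16438 FPKM. Of 39 genes of respiratory complex I 4 rose (median 0.54), and of 42 of ATP synthase and cytochrome oxidase 5 rose (median 0.53). Replication histones, whose messages mostly end without a poly-A tail, had a median of 1.69 over 59 tested genes, with 8 rises and no fall; HIST1H4C stood at 2.98 and 16.4 FPKM. In wild type their median was -0.24. Transcript length moved with these groups. The Het change fell along transcript length (Spearman rho -0.22 across 12214 genes, which share their libraries), from a median of 0.32 in the shortest quintile to -0.13 in the longest, while the median length was 564 bases for the histone list. With calls remade after centring within length bins, 11 ribosomal protein genes rose instead of 31 under the same test without centring (19 when centred on the median of all genes), the median was 0.60, and 75 of 76 stayed above 0. For the histones these counts were 16 and 22, and the medians 1.49 and 1.81. In wild type the change instead fell with GC content (rho -0.49), which was not so in Het (0.09) or KO (-0.02). Whether length, RNA quality or library preparation had a part in these rises was not tested.

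Genes of chromosome 12 stood higher at day 5 as a block. Over 674 genes with at least 1 FPKM on both days the median log2 change in Het was 0.33, and 75.1% were above 0, against 53.05% of all such genes. The next highest chromosome, 19, had a median of 0.11. Of 734 tested genes on chromosome 12, 75 rose (10.2%) and 10 fell. The median was above 0 in each of 7 windows of 20 Mb, from 0.14 to 0.42. In the wild-type and KO time courses the chromosome 12 median was 0.09 in each. Set against wild type, Het stood at -0.52 on chromosome 12 at day 3 and at -0.27 at day 5, and KO at -0.48 and -0.50. RPLP0, RPL41, ENO2, PMEL, ALX1, ATP5G2, COX6A1 and PRMT8 lie on this chromosome, and so does LHX5, which fell. Without chromosome 12, 1006 genes were called, of which 611 rose. Whether copy number of the chromosome had a part was not tested.

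**Figure D3:**
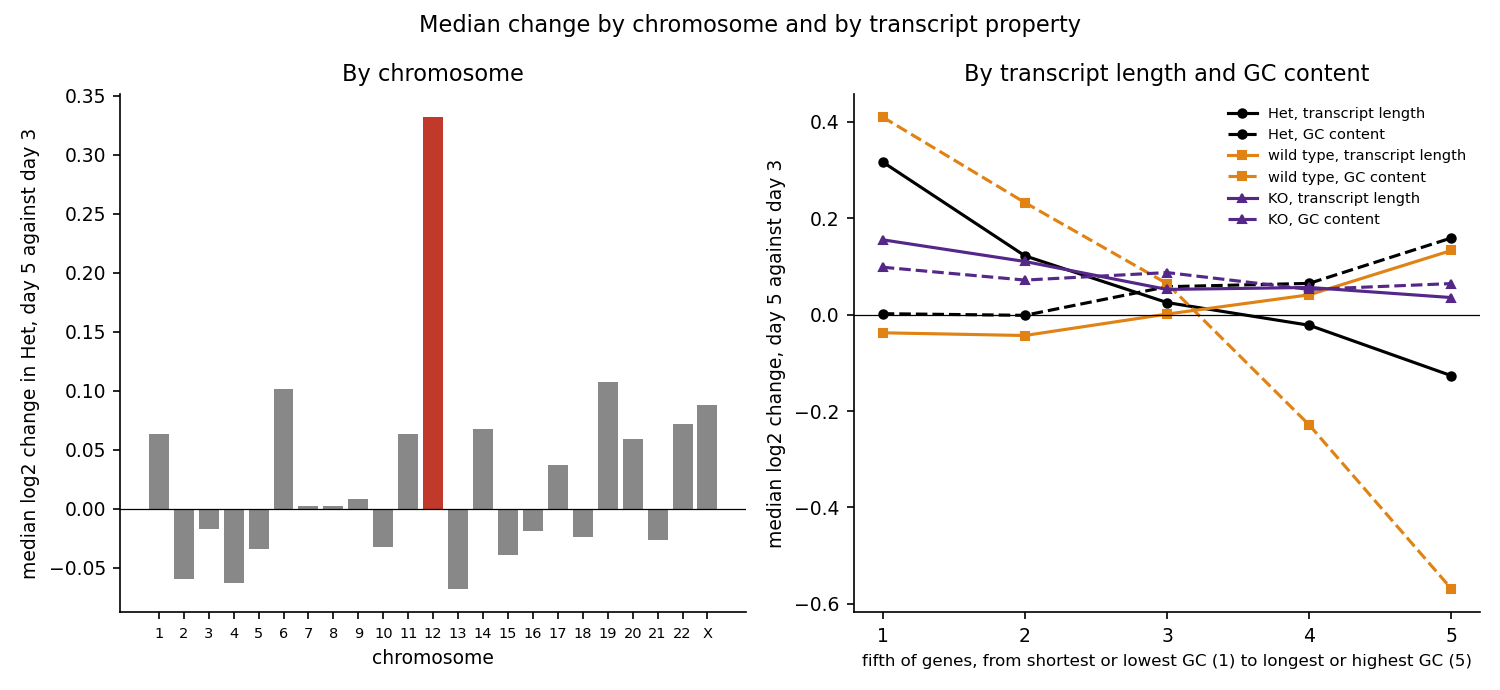
The left panel gives the median log2 change in Het for the genes of each chromosome, with chromosome 12 in red at 0.33. The right panel gives the median change of genes in quintiles of transcript length (solid) and GC content (dashed) for the 3 genotypes: Het falls from 0.32 to -0.13 along length, and wild type from 0.41 to -0.57 along GC content.

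The Het time course was compared with the wild-type and KO time courses, with which it shares no group. In wild type 3056 genes were called (22.3%) and in KO 1694 (12.1%). Of 1048 genes called in Het and tested in both lines, 644 moved the same way in wild type (61.5% of Het's calls and 22.0% of those of wild type) and 11 were called in opposite directions. Of 1041 such genes, 464 moved the same way in KO (44.6% of Het's calls and 33.3% of those of KO) and 6 in opposite directions. Among shared rises were SLC16A14, a transporter (0.327 to 5.06 FPKM in Het), and TPPP3, a tubulin-binding protein (0.258 to 7.01 FPKM), and among shared falls DAZL, PPP1R17 and WNT4. SOX10 rose in Het and in KO (1.27 to 34.6 FPKM), and stood at 0.455 and 0.388 FPKM in wild type. Its test score there was listed as 0, so no SE could be recovered and the Het and wild-type changes were not compared. ZIC1 was likewise at 0.605 FPKM at day 5 in wild type, at 5.16 FPKM in Het and at 22.3 FPKM in KO, a level in Het between those of the other genotypes.

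**Figure D4:**
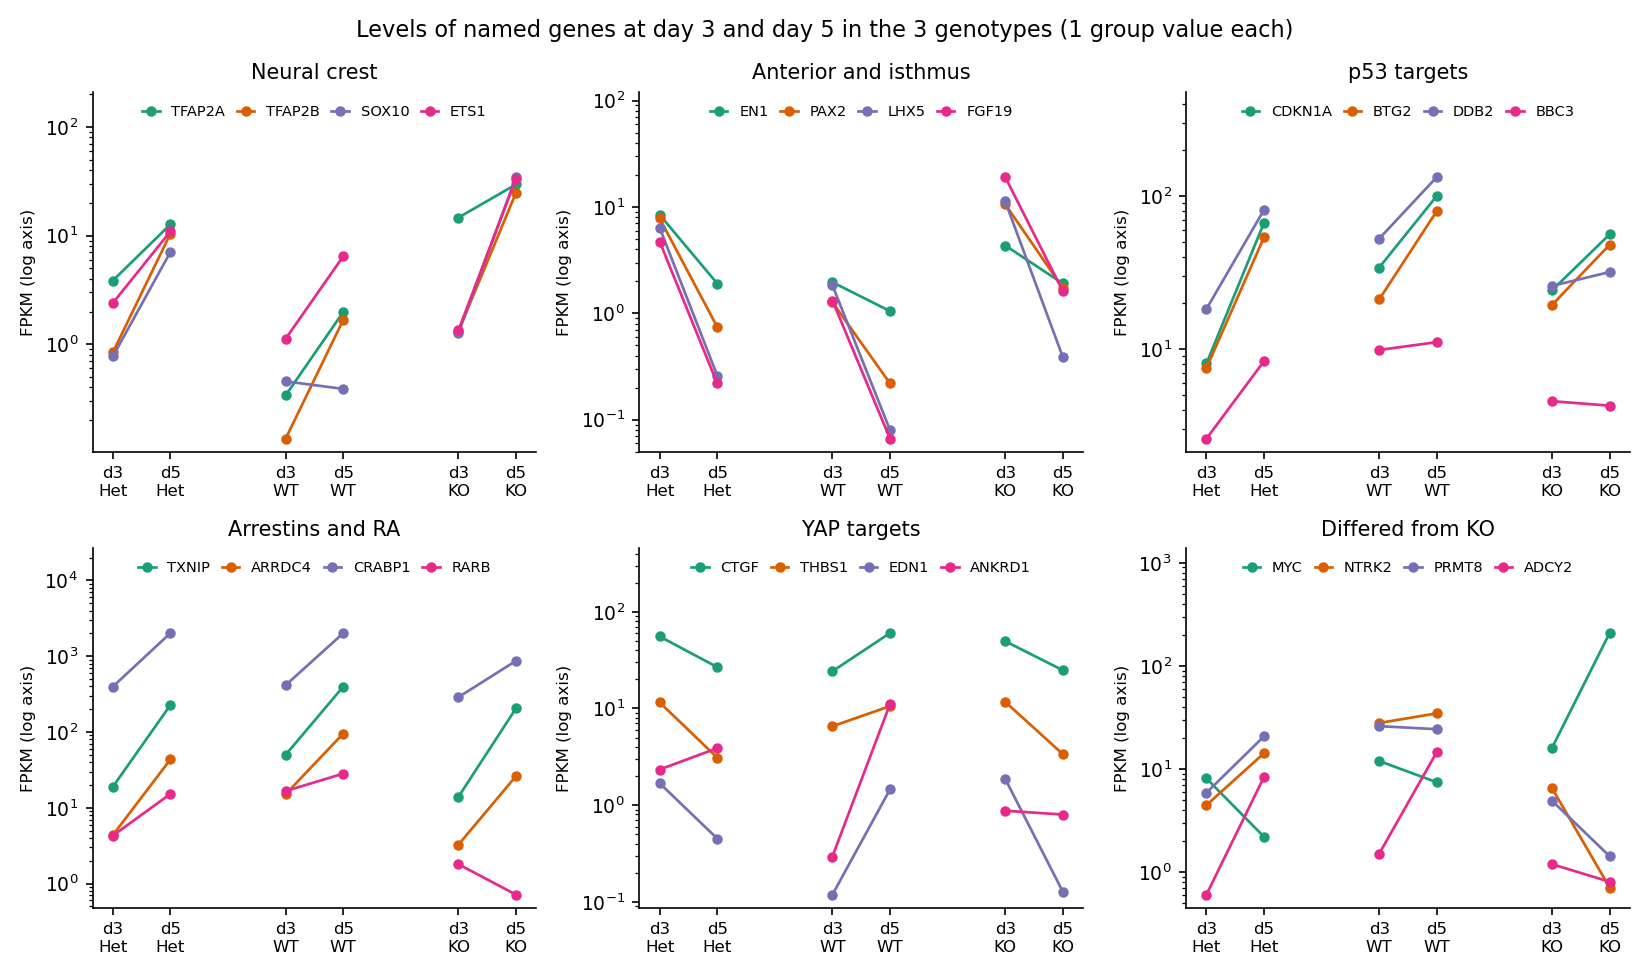
Each line joins the FPKM of a gene at day 3 and day 5 within Het, wild type (WT) or KO, on a log axis, with 1 group value per point and no error bar. SOX10 and TFAP2B end lower in wild type than in Het and KO, the lines of CTGF and THBS1 slope down in Het and KO and up in wild type, and MYC runs up to 208 FPKM in KO alone.

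A difference between the Het and the wild-type change passed the test (adjusted p below 0.05, normal test on the implied SE, Benjamini-Hochberg over 13476 genes) for 16 genes, which is 0.119%. Of these 10 were higher in Het (0.0742%) and 6 lower (0.0445%). FLG, filaggrin of the skin, rose from 0.0190 to 1.80 FPKM in Het and fell from 4.63 to 1.67 FPKM in wild type, a difference of 8.05 (SE 1.07). ZNF560 differed by 7.04 (SE 1.42), SCGB3A2, a secreted airway protein, by 6.31 (SE 1.52) and OLIG3, a factor of the dorsal neural tube, by 5.58 (SE 1.14). OLIG3 stood at 1.23 and 1.67 FPKM in Het and fell from 11.96 to 0.339 FPKM in wild type. For all 4 of these genes the day 3 level was higher in wild type than in Het. EDN1, the ligand of the endothelin receptors, fell from 1.68 to 0.451 FPKM in Het and rose from 0.118 to 1.46 FPKM in wild type, a difference of -5.52 (SE 1.27). ANKRD1 (-4.51), PAPPA (-3.46), ANXA1 (-3.41) and GREM1 (-3.28) followed.

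Small RNA features make up part of that count. For SNORD116-15 the authors' deposited table has a test score of 12.9 in Het with a p-value of 0.427, so the SE implied by the score is smaller than the p-value allows. An implied SE below 0.2 was found for 11 small RNA features and for no other gene. Without small RNA features 7 genes differed from wild type, 4 higher and 3 lower, and SCGB3A2, ANXA1 and GREM1 were no longer among them. For other genes the deposited p-values were on the whole smaller than their scores give under a normal curve. With the SE scaled to match them, 154 genes differed from wild type (1.14%), 102 higher (0.757%) and 52 lower (0.386%). ANKRD1 and CTGF are known targets of YAP, a cofactor that senses stretch and cell density. In a list of 15 tested YAP targets, drawn up after values had been seen, 3 fell in Het (CTGF, THBS1 and EDN1) with a median of -0.29, while 8 rose in wild type with a median of 0.92. CTGF stood at 55.5 and 26.8 FPKM in Het and at 24.2 and 60.3 FPKM in wild type, a difference of -2.37 that passed with the scaled SE and not with the full SE. THBS1 stood at 11.6 and 3.10 FPKM in Het and at 6.54 and 10.6 FPKM in wild type. In KO, CTGF, THBS1 and EDN1 fell as in Het.

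Against KO, 14 of 13442 genes differed (0.104%), 6 higher in Het (0.0446%) and 8 lower (0.0595%). With the scaled SE 162 differed (1.21%), 76 higher (0.565%) and 86 lower (0.64%). MYC, the growth regulator, fell from 8.12 to 2.21 FPKM in Het and rose from 16.1 to 208 FPKM in KO, a difference of -5.58 (SE 0.72). NPR3, RWDD2B, CORO2B and PCDH17 were lower by 4.98, 4.93, 3.92 and 3.88 on the log2 scale; at day 5 they stood at 1.02, 1.61, 1.14 and 1.06 FPKM in Het and at 3.65, 5.33, 23.9 and 10.3 FPKM in KO. NTRK2 rose in Het and fell from 6.54 to 0.712 FPKM in KO, a difference of 4.87 (SE 0.81). ADCY2, an adenylyl cyclase, rose from 0.607 to 8.40 FPKM in Het and stood at 1.198 and 0.810 FPKM in KO (4.36, SE 0.89). PRMT8, a brain arginine methyltransferase, rose from 5.90 to 20.8 FPKM in Het and fell from 4.94 to 1.43 FPKM in KO (3.60, SE 0.85). ERVMER34-1, an endogenous retroviral gene, differed by 4.43 and TSPAN11 by 3.01. ADCY2 also rose in wild type, from 1.51 to 14.7 FPKM.

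**Figure D5:**
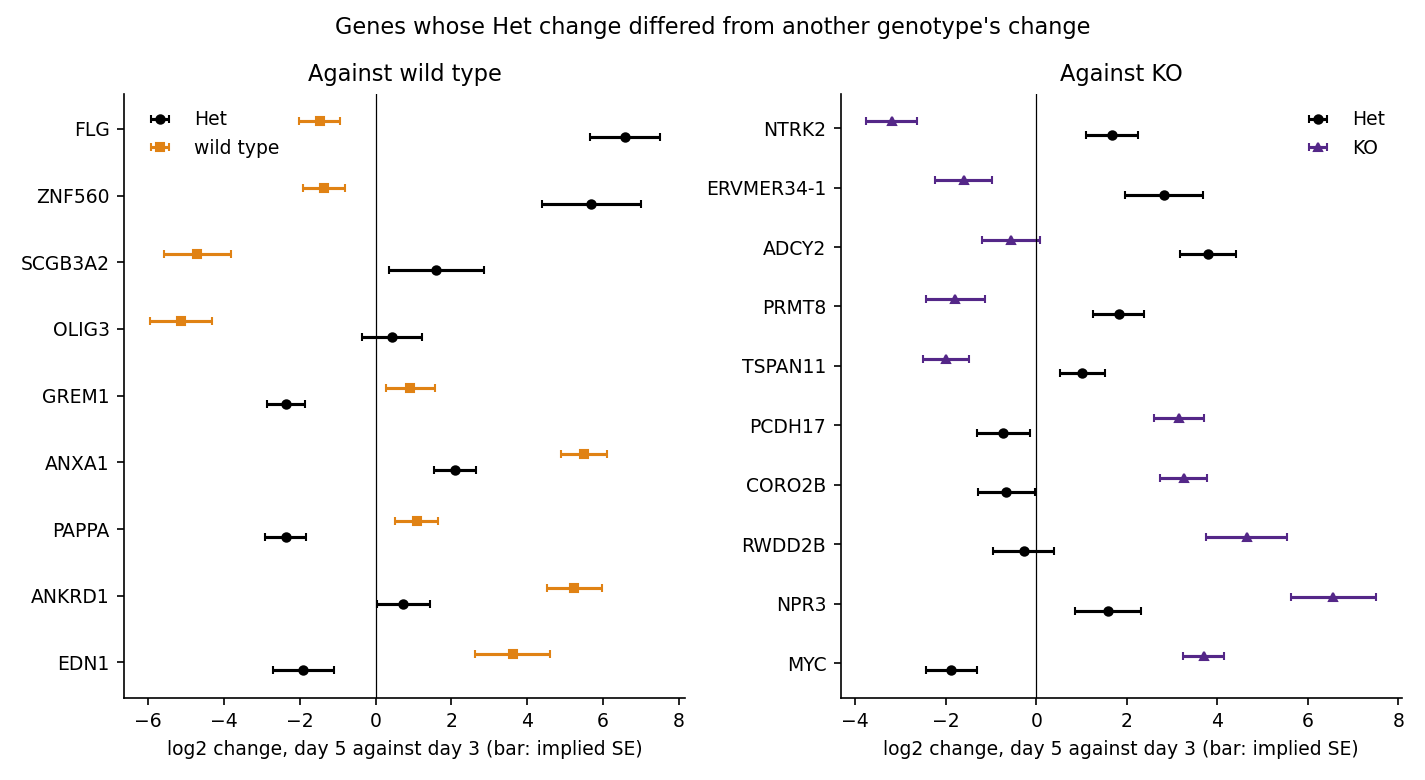
Points give the log2 change from day 3 to day 5 in Het (black) and in wild type (left panel) or KO (right panel), with bars for 1 implied SE, for the named genes that passed the test of the difference, small RNA features left out. FLG and ZNF560 lie far to the right in Het against wild type, and MYC lies at -1.88 in Het and 3.70 in KO.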

How the data were processed

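RNA from 16 libraries of poly-adenylated RNA was measured, 4 of them Het. Per the submitters' processing notes TopHat2 2.1.1 and Cuffdiff 2.2.1 were used with hg19; no source used here names the annotation version. In the authors' deposited table there are FPKM per gene and group, a log2 fold change, a test score, and a p-value and q-value for 15 comparisons of 6 groups; values per library and depth are not shown. Its q-values equal a Benjamini-Hochberg adjustment over 222234 tests. The smallest deposited p-value is 5e-05, shared by 271 of the genes called in Het.

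Changes were computed in Python 3.11.15 from the group FPKM, without a pseudocount for single genes and with 0.1 FPKM for medians; genes at 0 on a day have no fold. The SE is the deposited log2 change over its score, left out for the 13 Het rows whose deposited log2 differs from the FPKM ratio by over 0.01. The SE ratios that match the deposited p-values were 0.71 in Het, 0.55 in wild type and 0.71 in KO. Which of the 4 wild-type libraries per day entered the wild-type group is not stated in the table. GC content and length come from the longest transcript of the same symbol (88.4% of the genes).

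The gene set and the lists were chosen with earlier results of these data known, and lists share members. Lists were neural plate border, crest specifiers, crest surface and migration, neural progenitors, midbrain and isthmus, HOX, sensory and neuronal, melanocyte and glia, pluripotency, streak, placode, mesenchyme, BMP, WNT, FGF, Notch, retinoic acid, p53, ATF4, glycolysis (PKM has no row under that name), proliferation, housekeeping, FOX, blood, and muscle; ribosomal proteins, histones, complex I, ATP synthase and cytochrome oxidase, splicing factors (HNRNP and SRSF), heat shock, interferon, YAP, immediate early, S100 and annexins, and arrestins were added after values were seen. Named were FOXB1, the 12 largest called rises and falls, called genes at 0 on a day with at least 5 FPKM on the other, the 8 most abundant called genes with a log2 change of at least 1 each way, up to 5 called members per list and members needed to describe it, and the 8 (wild type) and 5 (KO) largest differences each way. Y-linked genes and a few list members are not reported here. Alternatives were other thresholds, minimums, pseudocounts, centring and SE scaling.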

Additional observations from a re-analysis of the deposited data

Results flagged for a closer look

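The change from day 3 to day 5 differed between Het and another genotype for the genes below, which is what brings them here; each value is the Het minus the other log2 change, by the normal test on the implied SE with Benjamini-Hochberg adjustment over all genes tested in both.

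Against wild type the change was lower in Het for EDN1 (-5.52), ANKRD1 (-4.51), PAPPA (-3.46), ANXA1 (-3.41), GREM1 (-3.28) and the microRNA MIRLET7F1 (-1.21). It was higher in Het for FLG (8.05), ZNF560 (7.04), SCGB3A2 (6.31), OLIG3 (5.58), MIR4784 (3.42), SNORD116-15 (2.26), SNORD116-3 (2.00) and MIR612 (1.49). The 5 small RNA features among these were not called in any genotype in the authors' deposited table.

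Against KO the change was lower in Het for MYC (-5.58), NPR3 (-4.98), RWDD2B (-4.93), CORO2B (-3.92) and PCDH17 (-3.88). It was higher for NTRK2 (4.87), ERVMER34-1 (4.43), ADCY2 (4.36), PRMT8 (3.60) and TSPAN11 (3.01).

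FLG, EDN1 and PAPPA were called in opposite directions in Het and wild type in the authors' deposited table. MYC, NTRK2, PRMT8 and ERVMER34-1 were called in opposite directions in Het and KO.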

How the results depend on the processing

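No paired analysis was possible because the deposited values are per group and not per library; for the same reason no replicate could be left out. The Het count of 1091 stayed within 1.5 times under every alternative run except a threshold of 0.01, which left 512 genes (314 rose, 198 fell). With scaled SE the calls numbered 1055 with no centring, 1020 centred on the median, 944 within GC bins and 837 within length bins. Of the last, 499 rose and 338 fell. With no centring, 976 of 1087 main calls with a value were called again in the same direction. Of the 994 main calls with a known length, 843 were so within GC bins and 717 within length bins. The median of all genes was 0.04 with 1 FPKM added and also with at least 1 FPKM on both days.

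The tests of differences moved more. Scaling the SE gave 154 genes against wild type (102 higher in Het, 52 lower) and 162 against KO (76 and 86). At least 1 FPKM in every group left 8 against wild type (6 and 2) and 6 against KO (3 and 3). FLG, ZNF560, SCGB3A2, OLIG3, EDN1, ANKRD1, PAPPA and GREM1 each had a group below 1 FPKM, so none entered against wild type. NTRK2, ERVMER34-1, ADCY2, NPR3, RWDD2B and CNTN2 did not enter against KO for the same reason. Without small RNA features 7 remained against wild type (4 and 3) and 13 against KO. Centring both changes within GC bins gave 14 against wild type and 17 against KO. The cause of these moves was not tested, apart from fewer genes entering.

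Of the list medians, HOX moved to 2.38 with 1 FPKM added and to 0.33 with all list genes above 0 in a group, and with the latter pluripotency moved to -0.49, blood to -0.39, muscle to -0.17 and melanocyte and glia to 0.22. Midbrain and isthmus moved to -0.80 with 1 FPKM added, and S100 and annexins to 0.40 with length centring. No called gene of the named set changed direction, and the direction of its uncalled genes was not checked. Further list members named in the text did not enter this check. Among called named genes, with the SE scaled and the changes centred in the same fit, 23 were no longer past the threshold when centred within length bins, 12 within GC bins and 9 on the median. The parts of scaling and centring were not separated for these genes. Those lost with length centring included ribosomal protein and respiratory chain genes. Genes of low level carry the largest SE, so small changes at 1 to 3 FPKM could not be detected, and depth is unknown.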

Other observations

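Some of the largest changes in Het were of genes outside the lists of the report. The adhesion molecules CNTN2 (12.4 to 0.612 FPKM) and PCDH8 (8.09 to 0.661 FPKM), both of the developing nervous system, fell, while CNTN3, a relative of CNTN2, rose from 0.257 to 3.48 FPKM. CBLN1, a synapse organiser, fell from 4.37 to 0.419 FPKM in Het and from 4.32 to 0.637 FPKM in wild type, and stood at 23.3 and 18.5 FPKM in KO. DNAH9, a dynein heavy chain of motile cilia, fell from 1.27 to 0.0920 FPKM in Het and from 5.50 to 0.0781 FPKM in wild type, and stood at 2.79 and 5.91 FPKM in KO. For CBLN1 and DNAH9 the difference between the Het and KO time courses did not pass the test with the full SE and passed with the scaled SE. CNTN2 also fell in KO, from 5.58 to 2.51 FPKM, a difference between the time courses of -3.18 that passed the test.

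Splicing and RNA-processing genes were among the most abundant that fell. SFPQ went from 284 to 106 FPKM, HNRNPM from 307 to 113 FPKM and SRSF2 from 305 to 147 FPKM in Het, and all 3 fell in wild type and KO as well. Of 36 tested HNRNP and SRSF genes 3 fell and 1 antisense feature, HNRNPU-AS1, rose; the counting of strands is not given in the sources used here, so its reads and those of HNRNPU cannot be told apart. The surface sialomucin PODXL fell from 199 to 95.3 FPKM, and LARP7, which binds 7SK RNA, from 142 to 47.0 FPKM.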
